A study of Mus musculus with 8 samples.

Results

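The genes described here are the small GTPases Rab3a, Rab3b, Rab3c, Rab3d, Rab27a, Rab27b, Rab26 and Rab37 and the Rab27-binding proteins Sytl2 and Sytl4, 10 of the 53801 genes in the deposited count table. They were found by matching their symbols to the Ensembl identifiers of that table, and all 10 were present. They were selected on function, by family, with the genotype fold changes of these libraries already known, so their genotype differences are given below as a description. Calls of these genes are given beside the share of all genes called, and nothing is drawn from them. RNA was measured in Paneth cells of the small intestine, sorted by FACS as viable EpCAM+ Cd24+ crypt cells 10 d after mutagenesis was induced with 3 daily injections of tamoxifen. The 4 control mice were β-catGOF; Mll1+/- and the 4 knockout mice were β-catGOF; Mll1-/-. All 8 mice thus carried a stabilized β-catenin, made by deleting exon 3 of 1 allele, and all had lost at least 1 allele of Mll1, so no library represents the wild type. The series design gives β-catGOF for both groups, while the study's paragraph on sorting names the mice without it. The β-catenin and Mll1 alleles were recombined by Lgr5-EGFP-IRES-CreERT2, a Cre that acts in Lgr5+ stem cells and leaves a mosaic of recombined and unrecombined crypts. Mutagenesis was induced at an age of 4 to 6 wk by the study's methods, both sexes were used, and the labels do not give the sex of single mice.

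Rab GTPases are molecular switches that cycle between a GDP-bound form in the cytosol and a GTP-bound form on membranes. Members of the Rab3 and Rab27 branches sit on secretory granules, where the GTP-bound form recruits effectors such as the synaptotagmin-like proteins (Sytl) that tether and dock the granule at the plasma membrane before SNARE proteins fuse the membranes. Paneth cells secrete lysozyme and α-defensins from large apical granules by this regulated route, and enteroendocrine cells secrete hormones from dense-core granules by a related one.

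The total count per library was between 13037832 and 14380240, and a count of 3 corresponded to between 0.172 and 0.352 CPM (counts scaled to library size) after TMM normalization, the scale used below as normalized CPM. Knockout 3 stood apart. It held counts on 19662 genes against 22623 to 26074 in the other libraries, 2.04% of its counts were mitochondrial against 3.26% to 8.78%, and it carried both Xist (1037 counts) and Y-linked counts (148). Its TMM factor was 0.632 against 0.822 to 1.34 in the other libraries, so normalization raised its values more than those of any other library. Knockout 3 is counted as 1 mouse, as labelled, and whether it holds RNA of more than 1 mouse was not tested. Controls 1 and 2 and knockouts 1 and 2 have label numbers from 1 run and the other 4 libraries from another, called library sets 1 and 2 here. Paneth cell markers were present throughout: Lyz1, which encodes the granule lysozyme, was at 16100 to 56286 normalized CPM in the controls and at 20152 to 72416 in the knockouts, and all 19 Paneth markers on the list passed the filter on low counts. Kmt2a, the gene of Mll1, had 268 to 719 counts in the controls and 328 to 523 in the knockouts (log2 fold change -0.06, SE 0.24). These are counts over the whole gene, which do not check the deletion of single exons.

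Of the 10 genes, 7 passed the filter, and Rab3b, Rab26 and Rab37 did not. None of the 7 was past both limits in edgeR's quasi-likelihood fit, an adjusted p no higher than 0.05 and a log2 fold change no smaller than 0.5 in either direction, which 0.186% of the 13439 genes tested passed. Of the 7 log2 fold changes, 6 were below 0, and their median was -0.26, against 0.01 over all genes tested. The values ran from a high level of Rab3d, Rab27b, Sytl2 and Rab27a in every library to a few counts of Rab26, and the widest gap between the genotypes was that of Rab3c.

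**Figure D1:**
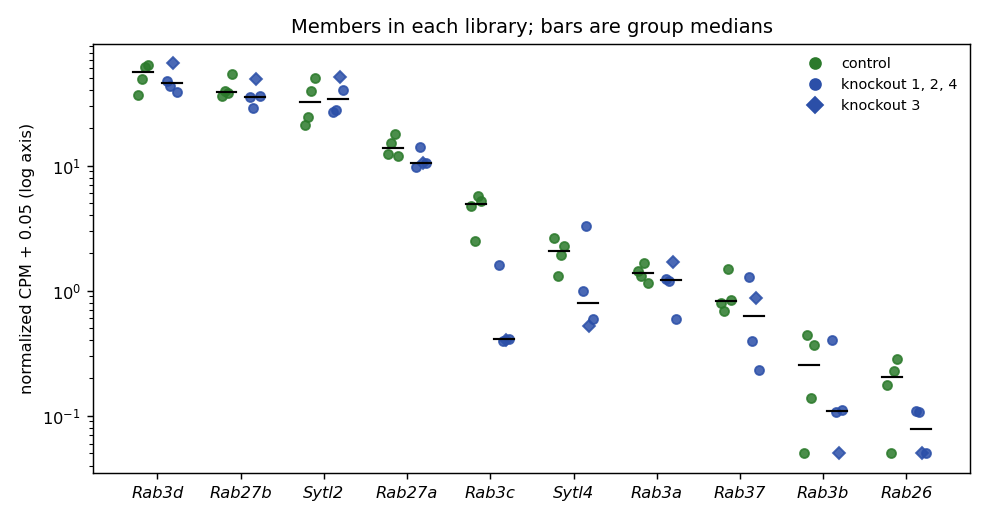
Normalized CPM of the 10 genes in each of the 8 libraries, with 0.05 added and drawn on a log axis; green points are controls, blue points knockouts, the diamond is knockout 3 and black bars are group medians. Control and knockout values are intermingled for 9 genes, while for Rab3c every knockout lies below every control. The points are not scaled by gene length, so heights compare libraries and not genes.

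Rab3d is the Rab3 protein of exocrine granules, known from zymogen granules of the pancreas and parotid. The gene (ENSMUSG00000019066) lies at chr9:21907491-21918192 on the minus strand of GRCm38 (mm10). In the controls 1 to 4 it was at 36.8, 49.7, 62.1 and 63.5 normalized CPM, and in the knockouts 1 to 4 at 47.6, 43.2, 65.7 and 38.8. The lowest and the highest value came from control 1 and knockout 3, and the groups overlapped over nearly their whole range. In raw counts knockout 3 was the lowest library, at 559 with a highest of 804, so its rank rests on its TMM factor of 0.632. Group means were 53.0 ± 12.5 (SD, n = 4) and 48.8 ± 11.8 (SD, n = 4), with a log2 fold change of -0.12 (SE 0.22), and -0.30 to -0.02 when single libraries were left out. Within library set 1 the control mean of 43.2 lay below the knockout mean of 45.4, and within set 2 the control mean of 62.8 lay above the knockout mean of 52.2, so that the direction was not shared by the 2 sets.

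Rab3c, a Rab3 protein known from neurons and endocrine cells, had a different profile. The gene (ENSMUSG00000021700) lies at chr13:110054187-110280996 on the minus strand. It had 75, 31, 63 and 65 counts in the controls and 26, 6, 3 and 6 in the knockouts. These correspond to 4.70, 2.46, 5.65 and 5.13 normalized CPM in the controls and to 1.54, 0.345, 0.352 and 0.364 in the knockouts. All 4 knockouts lay below the lowest control, control 2, and knockout 1 lay between that control and the other 3 knockouts. Rab3c was the only one of the 10 genes whose groups did not overlap, which was so, with the knockouts lower, for 1.93% of all genes tested. The means were 4.49 ± 1.41 (SD, n = 4) in the controls and 0.651 ± 0.595 (SD, n = 4) in the knockouts, a ratio of 6.89, and the fitted log2 fold change was -2.73 (SE 0.56). The knockout mean lay below the control mean within both library sets, at 0.944 against 3.58 in set 1 and at 0.358 against 5.39 in set 2. As a description of the fits, Rab3c was not past both limits in the main fit or in 13 of 17 alternatives, and was past them in 4. Its log2 fold change was -3.62 without knockout 1 (0.152% of all genes tested were past the limits there), -2.57 without knockout 3 (1.08%), -2.75 in DESeq2's Wald test (1.03%) and -2.72 without the filter (0.783%).

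**Figure D2:**
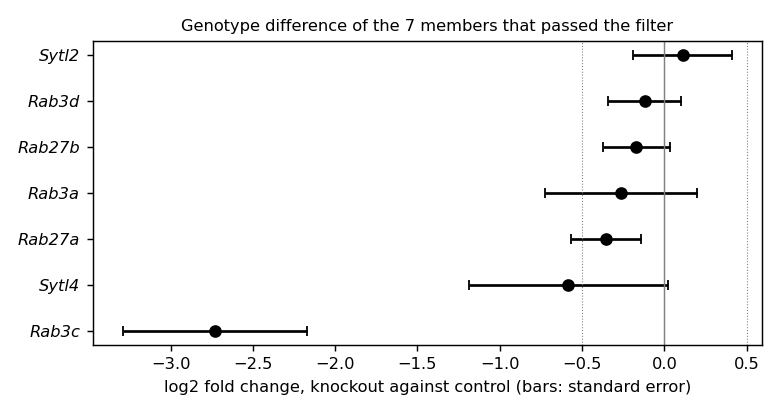
Log2 fold change, knockout against control, of the 7 genes that passed the filter (points, edgeR) with standard errors (bars); the dotted lines mark 0.5 in either direction. Rab3c stands at -2.73, while the other genes lie between -0.58 for Sytl4 and 0.11 for Sytl2.

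Rab3a, the Rab3 protein of synaptic vesicles, was low in both groups. The gene (ENSMUSG00000031840, chr8:70754679-70758677, plus strand) was at 1.38, 1.27, 1.62 and 1.11 normalized CPM in the controls and at 1.19, 1.15, 1.64 and 0.546 in the knockouts. Knockout 4 was lowest and knockout 3 highest, so both ends came from the knockouts. The log2 fold change was -0.26 (SE 0.46), from 9 to 22 counts per library, and -0.03 without knockout 4. Of its exon bases, 1.30% are shared with Mpv17l2 on the other strand.

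Rab3b (ENSMUSG00000003411, chr4:108879063-108943324, plus strand) had 0, 5, 1 and 4 counts in the controls and 6, 1, 0 and 1 in the knockouts, too few for a fold change. A difference between the genotypes was not detectable at this depth. Of its exon bases, 9.00% are shared with 8030443G20Rik on the other strand, and 7.70% of the 50-base words of its transcripts also occur in transcripts of another gene.

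The 4 Rab3 genes are close copies, which bears on whether reads of one could be counted on another. Their coding sequences of 657 to 684 bases were identical over 69.6% to 75.0% of pairwise alignments, with 71.9% between Rab3c and Rab3d. None of the 50-base words of Rab3d or Rab3a transcripts and 0.587% of those of Rab3c occurred in transcripts of another gene, and the authors counted uniquely mapped reads only. The end of the coding sequence encodes the tail that is lipid-modified to hold the protein on the membrane. The last 60 coding bases before the stop codon, from the GENCODE M21 transcripts, are shown here because Rab3c and Rab3d are the 2 members with the widest genotype difference and the highest level. Capitals mark bases that differ from Rab3d when the ends are set under each other without gaps.
Rab3d: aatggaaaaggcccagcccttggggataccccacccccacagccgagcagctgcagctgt
Rab3c: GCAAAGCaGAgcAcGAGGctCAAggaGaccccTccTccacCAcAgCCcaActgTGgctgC
Rab3a: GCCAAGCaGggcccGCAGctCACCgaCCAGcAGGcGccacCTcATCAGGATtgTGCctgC
Rab3b: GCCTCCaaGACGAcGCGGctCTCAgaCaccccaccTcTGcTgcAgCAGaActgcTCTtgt
The count of bases that differ was 29 of 60 for Rab3c, 32 for Rab3b and 38 for Rab3a.

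Rab27a, which recruits effectors to lysosome-related granules such as melanosomes and lytic granules, was present in every library. The gene (ENSMUSG00000032202, chr9:73044854-73097629, plus strand) was at 12.4, 15.2, 17.9 and 11.9 normalized CPM in the controls and at 9.80, 14.1, 10.5 and 10.4 in the knockouts. Knockouts 1, 3 and 4 lay below every control, and knockout 2 lay among the controls. The means were 14.3 ± 2.75 (SD, n = 4) and 11.2 ± 1.94 (SD, n = 4), and the log2 fold change was -0.35 (SE 0.22). Leaving out single libraries gave -0.49 to -0.23. Gm27186 shares 3.84% of the exon bases on the same strand.

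Rab27b, the second Rab27 and known from exocrine, mast cell and pituitary granules, overlapped between the genotypes. The gene (ENSMUSG00000024511, chr18:69979131-70141605, minus strand) was at 36.0, 39.4, 38.1 and 54.3 normalized CPM in the controls and at 35.5, 29.1, 49.2 and 35.8 in the knockouts. Control 4 and knockout 3 were the 2 high libraries, and the other 6 lay between 29.1 and 39.4. The log2 fold change was -0.17 (SE 0.20), and -0.33 to -0.02 when single libraries were left out. The coding sequences of the 2 Rab27 genes were identical over 67.9% of their alignment.

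Rab26 and Rab37, related Rabs that have been described on exocrine and mast cell granules, were near the limit of these counts. Rab26 (ENSMUSG00000079657, chr17:24527241-24534210, minus strand) had 2, 0, 2 and 3 counts in the controls and 1, 1, 0 and 0 in the knockouts, 9 counts in all. Both groups are at or under 3 counts per library, so no fold change is given, and 9.36% of its exon bases are shared with Traf7 on the same strand. Rab37 (ENSMUSG00000020732, chr11:115091431-115162236, plus strand) had 12, 8, 16 and 10 counts in the controls and 21, 6, 7 and 3 in the knockouts. Knockout 1 was above every control and knockouts 2, 3 and 4 were below every control in counts. On the normalized scale knockout 1, at 1.25 CPM, lay below control 3 at 1.44, and knockout 3, at 0.822, lay above the control median of 0.771.

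Sytl2 encodes an effector that binds GTP-bound Rab27 and the plasma membrane. The gene (ENSMUSG00000030616, chr7:90302252-90410719, plus strand) was at 21.1, 24.5, 39.8 and 49.9 normalized CPM in the controls and at 26.8, 27.8, 51.6 and 40.2 in the knockouts. It followed the library set and not the genotype: the 4 libraries of set 1 lay between 21.1 and 27.8 and the 4 of set 2 between 39.8 and 51.6. Sytl2 was the only one of the 10 genes whose sets did not overlap, which was so, with set 2 higher, for 2.92% of all genes tested. The log2 fold change between the genotypes was 0.11 (SE 0.30), with a sign that turned in 4 of 18 alternative fits.

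Sytl4, also called granuphilin, binds Rab27 and Rab3 proteins on dense-core granules and was known first from pancreatic β cells. The gene (ENSMUSG00000031255, chrX:133936385-133981812, minus strand) was at 2.57, 1.27, 1.89 and 2.21 normalized CPM in the controls and at 0.950, 3.22, 0.470 and 0.546 in the knockouts. Knockout 2 was the highest of all 8 libraries, and knockouts 1, 3 and 4 were below every control. The log2 fold change was -0.58 (SE 0.61), and -1.56 without knockout 2. The 3 libraries with Y-linked counts above 800 and at most 6 counts of Xist, control 3 and knockouts 1 and 2, held 1.89, 0.950 and 3.22 normalized CPM of this X-linked gene, a wide spread among themselves. With the Y-linked counts as a covariate the log2 fold change of Sytl4 was -1.24, and without knockout 4 it was -0.32.

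Levels of different genes were set beside each other per kb of exon. By this length Rab3d was highest in every library, with a median of 11.6 normalized CPM per kb over the 8 libraries. It was followed by Rab27b at 3.47, Rab27a at 3.14, Sytl2 at 2.42, Rab3a at 0.552 and Sytl4 at 0.308. The lowest 4 were Rab3c at 0.166, Rab37 at 0.145, Rab3b at 0.0213 and Rab26 at 0.0205. The median of Rab3c pools 2 unlike groups of values: its mean was 0.372 in the controls and 0.0541 in the knockouts. It lay above Rab37 in 4 of 4 controls and above it in 0 of 4 knockouts. This describes the same values as above and is no further test. Each gene was compared with the next lower one over the 8 libraries by an exact two-sided sign-flip permutation test of the log2 difference (value + 0.1), adjusted over 9 pairs, with a smallest possible p of 0.0078. Rab3d exceeded Rab27b in 8 of 8 libraries by a mean log2 difference of 1.67 ± 0.22 (SD; exact permutation test, adjusted p = 0.0234). Sytl2 exceeded Rab3a in 8 of 8 by 1.98 ± 0.63 (SD; exact permutation test, adjusted p = 0.0234), and Rab37 exceeded Rab3b in 8 of 8. For the last pair no size or p is given, since Rab3b lies at or below about the added 0.1, so that the offset bears strongly on the log2 difference. The order of the pairs was taken from the same libraries. In the other 6 pairs the adjusted p was above 0.05. Among these, Rab27b exceeded Rab27a in 5 of 8 libraries (exact permutation test, adjusted p = 0.432) and Rab3a exceeded Sytl4 in 7 of 8 (exact permutation test, adjusted p = 0.0527). The order within the upper group depends on the length used. Per kb of the longest coding transcript, the median of Sytl2 was 8.80, that of Rab27b 5.38 and that of Rab27a 3.84, while Rab3d stayed first by the median at 12.5. By this length Rab3d was not first in knockout 4. There Sytl2 was at 40.2 normalized CPM on 3838 bases and Rab3d at 38.8 on 3886 bases.

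**Figure D3:**
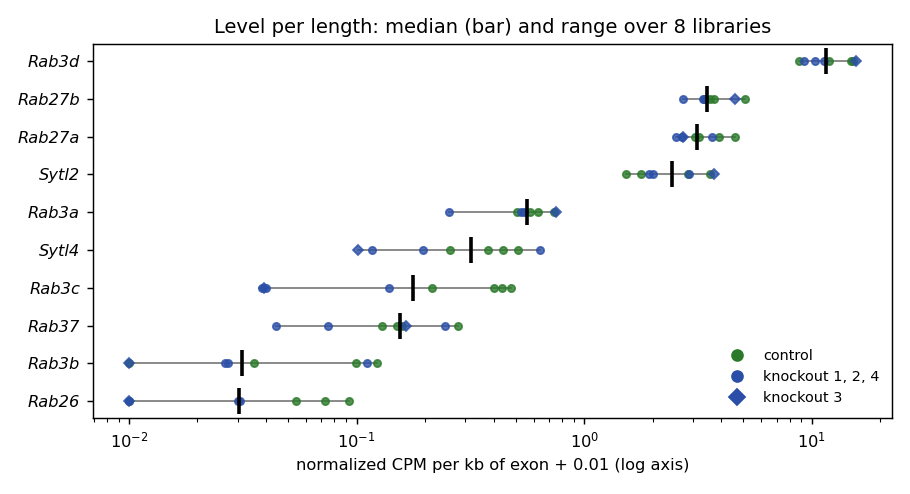
Normalized CPM per kb of exon (with 0.01 added, log axis) of the 10 genes in each of the 8 libraries, ordered by the median (black bar), with the range as a grey line; green are controls, blue knockouts, the diamond knockout 3. The range of Rab3d, 8.77 to 15.6, lies above those of all others, and Rab27b, Rab27a and Sytl2 lie together between 1.51 and 5.09.

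The 5 genes whose log2 (CPM + 1) had the highest Pearson correlation with that of Rab3d across the 8 libraries were Lyz1 (r = 0.99), Bambi, which encodes a pseudoreceptor of BMP signalling (0.98), Chid1, of the chitinase-like family (0.98), the defensin pseudogene Defa-ps1 (0.98) and Lyz2, the second lysozyme gene (0.97). These are correlations over 8 libraries that share cell pool and depth between the genes. Both values of a pair are also divided by the same TMM factor of each library, from 0.632 to 1.34. Raw counts of Rab3d ran from 559 to 804 and were lowest in knockout 3. The part of the TMM factor in r was not tested. Without knockout 3, r with Lyz1 was 0.99, and 3 of the 5 genes were again among the highest 5. By the same measure r with Rab3d was 0.87 for the Paneth gene Mmp7, 0.86 for Defa24, 0.77 for Muc2, the goblet mucin gene, and 0.75 for Bhlha15. Among the 10 genes it was 0.74 for Rab27b, 0.72 for Sytl2 and 0.18 for Rab27a, which was 0.43 without knockout 3. Bhlha15 (Mist1), a transcription factor of professional secretory cells that is known to act on Rab3d and Rab26 in gastric zymogenic cells, was at 26.5 ± 5.53 (SD, n = 4) normalized CPM in the controls and 18.6 ± 5.60 (SD, n = 4) in the knockouts (log2 fold change -0.52, SE 0.24, edgeR adjusted p = 0.724). Xbp1, which acts upstream of Mist1 in secretory cells, was at 94.9 ± 18.1 (SD, n = 4) and 109.9 ± 64.3 (SD, n = 4), with knockout 3 at 206 (log2 fold change 0.21, SE 0.32, edgeR adjusted p = 0.970).

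**Figure D4:**
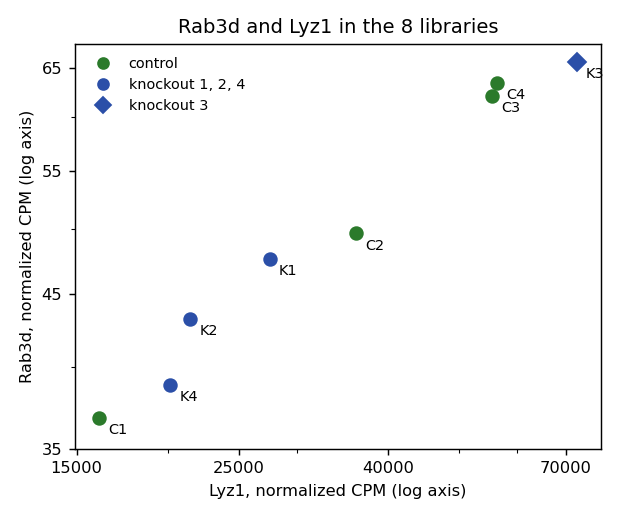
Rab3d against Lyz1 in the 8 libraries, both as normalized CPM on log axes; green are controls (C1 to C4), blue knockouts (K1 to K4), the diamond knockout 3. Rab3d rises with Lyz1 from control 1 (16100 and 36.8) to knockout 3 (72416 and 65.7), with controls and knockouts interleaved along the line. Both axes are divided by the same TMM factor of each library, and its part in the rise was not tested.

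Genes with a pattern like that of Rab3c were looked up after its values had been seen. The 5 with the highest correlation were Il17re, Tac1, Neurod1, Tph1 and Stxbp5l. No coefficient is given, because the genotypes separate in Rab3c and any gene that separates them alike would score high. Of the 5, 3 are on the enteroendocrine list: Neurod1, a transcription factor of hormone-secreting cells, Tph1, which makes serotonin in enterochromaffin cells, and Tac1, the precursor of substance P. Neurod1 was at 24.8, 22.1, 56.9 and 42.1 normalized CPM in the controls and at 12.5, 3.73, 5.40 and 8.43 in the knockouts. Tph1 was at 7.08, 10.2, 13.6 and 22.4 in the controls and at 3.15 in knockout 1 and 0.121 in knockout 4, with no count in knockouts 2 and 3. In these genes, as in Rab3c, knockout 1 was the highest of the knockouts. Other markers of the list had another order: Chgb was at 64.5 normalized CPM in knockout 1 and 123 in knockout 3, and Isl1 at 24.4 in knockout 1 and 38.0 in knockout 4.

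Of 25 enteroendocrine markers, 24 were tested and 23 had a log2 fold change below 0, with a median of -1.40 against 0.01 over all genes tested. None was past both limits in edgeR, and 12 were lower at an unadjusted p under 0.05, as were 2.53% of all genes tested. DESeq2 called 3 (1.03% of all genes) and limma-voom 1 (0.707%). In 5 of them the knockouts lay below every control, as in 1.93% of all genes tested. The summed level of the list was lower than in every control in knockouts 1, 2 and 4 and highest of all libraries in knockout 3. It was between 1202 and 2512 normalized CPM in the controls, and at 1129, 104, 2796 and 512 in the knockouts 1 to 4. Gip and Ghrl, the genes of 2 gut hormones, made up most of it in knockout 3, at 1682 and 838 normalized CPM. Chga, which encodes the granule protein chromogranin A, was at 11.5, 23.0, 28.8 and 38.8 in the controls and at 13.5, 1.15, 5.52 and 5.58 in the knockouts. In a bulk sample, fewer cells of a type and less RNA per cell cannot be told apart, and the part of enteroendocrine cells in the Rab3c values was not tested. Cd24, used for the sort, is also carried by enteroendocrine cells.

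**Figure D5:**
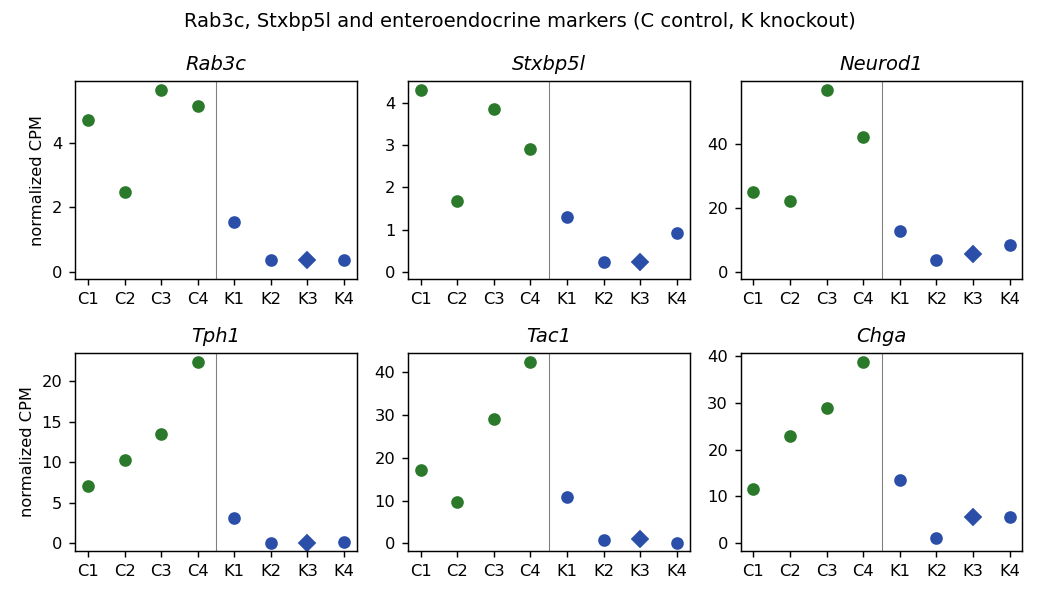
Normalized CPM of Rab3c, Stxbp5l, Neurod1, Tph1, Tac1 and Chga in controls 1 to 4 (C, green) and knockouts 1 to 4 (K, blue; diamond, knockout 3), each panel on its own linear axis. The knockouts lie below all controls for Rab3c, Stxbp5l, Neurod1 and Tph1, and knockout 1 is the highest knockout in every panel. The genes were chosen after their values had been seen, and markers not drawn, such as Chgb and Isl1, have another knockout highest.

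Of the tuft cell markers tested, 11 of 12 had a log2 fold change below 0, with 3 lower at an unadjusted p under 0.05, and their summed level was 311 to 893 normalized CPM in the controls and 165 to 567 in the knockouts. The summed goblet markers were at 11906 to 24784 in the controls and 9995 to 27792 in the knockouts. Of 13 goblet markers tested, 8 had a log2 fold change above 0 and 5 below, and 2 were lower at an unadjusted p under 0.05, Fcgbp (-2.24) and Zg16 (-5.05), with none past both limits in edgeR. Of the enterocyte markers, 8 of 9 tested had a log2 fold change below 0, with a median of -0.72 and 4 lower at an unadjusted p under 0.05. In 2 of them the knockouts lay below every control, as in 1 tuft marker, 1 stem cell marker, 0 goblet markers and 1.93% of all genes tested. In 1 stem cell marker the knockouts lay above every control, as in 2.59% of all genes tested. The sum of the enterocyte markers was 248 to 435 in the controls and 165 to 336 in the knockouts. Of the 11 stem cell markers, 5 were above 0 and 6 below, with 3 in each direction at an unadjusted p under 0.05. Over all genes tested these shares were 4.35% higher and 2.53% lower. The stem cell sum was 802 to 1646 in the controls and 348 to 1087 in the knockouts. The part of these cell types in the values of the 10 genes was not tested.

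Promoter sequences of RefSeq (GRCm38.p6) were found for 6 of the 10 genes. The 250 bases before the annotated start of Rab3c and Rab3d are shown because these genes have unlike levels and unlike genotype differences. For Rab3d, 9 bases at the end that lie in an annotated exon were left off. The letters CAGCTG and CATATG (E-boxes, the sites of basic helix-loop-helix factors such as Neurod1 and Mist1) and CTTTGAT and CTTTGTT (letters bound by Tcf/Lef and Sox factors) were searched on both strands, and matches are in capitals.
Rab3c (chr13:110280207-110280456, minus strand): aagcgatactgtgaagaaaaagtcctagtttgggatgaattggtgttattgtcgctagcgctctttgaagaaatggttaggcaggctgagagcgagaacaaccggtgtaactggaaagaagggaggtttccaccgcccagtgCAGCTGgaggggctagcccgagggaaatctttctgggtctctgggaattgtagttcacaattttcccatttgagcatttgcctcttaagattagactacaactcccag
Rab3d (chr9:21918193-21918433, minus strand): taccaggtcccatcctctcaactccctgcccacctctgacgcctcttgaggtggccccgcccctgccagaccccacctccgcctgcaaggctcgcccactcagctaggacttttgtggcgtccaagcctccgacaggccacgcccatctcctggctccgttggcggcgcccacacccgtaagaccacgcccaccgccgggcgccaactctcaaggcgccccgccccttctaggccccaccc
In Rab3c, CAGCTG occurred once, starting 108 bases before the RefSeq start, and the other letters did not occur. That start lies 790 bases inside the gene model counted here, so the window is within the span of Rab3c given above, outside its annotated exons. None of the 4 occurred in Rab3d. Of the other promoters found, a second one of Rab3a held CAGCTG and a second one of Rab27a held CAGCTG and CATATG, in genes with log2 fold changes of -0.26 and -0.35. The 250-base windows of 32851 RefSeq promoters held CAGCTG in 13.0%, CATATG in 3.46%, CTTTGAT in 3.21% and CTTTGTT in 5.03%. G and C made up 47.6% of the window of Rab3c and 69.2% of that of Rab3d, with a median of 52.4% over all promoters, and CG dinucleotides numbered 7 and 18. Whether any factor binds there is not shown by letters.

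The machinery around these Rabs was taken from 6 lists with 108 genes: effectors, regulators of the Rab cycle, SNAREs and Sec1/Munc18 proteins, calcium sensors and priming factors, the exocyst, and other secretory Rabs. Of the 74 that were tested, none was past both limits in edgeR. At an unadjusted p under 0.05, 2 were higher and 3 lower, against 4.35% and 2.53% of all genes tested. DESeq2 called 1, where 1.03% of all genes were called, and limma-voom none, where 0.707% were. The log2 fold change was above 0 in 34 and below 0 in 40. The genotypes did not overlap in 4, with the knockouts lower in Stxbp5l, Rph3al and Cplx2 and higher in Rab13, against 1.93% and 2.59% of all genes tested in those directions.

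Among the effectors of Rab3 and Rab27, Mlph, which couples Rab27a to myosin Va, had the highest median, 18.4 normalized CPM, with a log2 fold change of 0.21 (SE 0.23). It was followed by Unc13b, a Munc13 priming factor (13.3; -0.19, SE 0.25), and Exph5, a Rab27 effector (9.18; -0.31, SE 0.26). Rph3al (Noc2), an effector of Rab3 and Rab27 needed for exocrine and endocrine granule release, was at 9.97, 8.73, 11.7 and 8.37 normalized CPM in the controls and at 7.19, 6.78, 5.52 and 7.52 in the knockouts (log2 fold change -0.51, SE 0.22, edgeR adjusted p = 0.680). Myrip, which links Rab27a to myosin, was at 3.65 ± 1.15 (SD, n = 4) in the controls and 7.14 ± 4.34 (SD, n = 4) in the knockouts, with knockout 3 at 13.3 (log2 fold change 0.95, SE 0.42, edgeR adjusted p = 0.692). The median log2 fold change of the 10 effectors tested was -0.18.

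Of 15 regulators of the Rab cycle, 13 were tested and none was past both limits in edgeR or had an unadjusted p under 0.05. The GDP dissociation inhibitor Gdi2, which holds inactive Rabs in the cytosol, had a median of 73.9 normalized CPM and a log2 fold change of 0.10 (SE 0.16). Rabggtb, the β subunit of the enzyme that attaches the lipid anchor to Rabs, had 21.6 and 0.28 (SE 0.34). The smallest p-values of this list belonged to Chm, the Rab escort protein, with a log2 fold change of 0.43 (SE 0.29, edgeR adjusted p = 0.887), and Rab3ip, with -0.31 (SE 0.23, edgeR adjusted p = 0.907). The median over 13 genes was 0.06.

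Of the SNARE list, Vamp8, the main granule SNARE of exocrine cells, had a median of 40.6 normalized CPM, Napa (α-SNAP) 22.9 and Stx3, an apical syntaxin, 18.3, with log2 fold changes of 0.06 (SE 0.27), 0.20 (SE 0.27) and -0.07 (SE 0.18). Stxbp5l (tomosyn-2), which binds syntaxin and restrains fusion, was at 4.32, 1.67, 3.86 and 2.92 normalized CPM in the controls and at 1.31, 0.230, 0.235 and 0.910 in the knockouts. All knockouts lay below all controls, with a log2 fold change of -2.19 (SE 0.59, edgeR adjusted p = 0.344). The gene was past both limits in DESeq2, as were 1.03% of all genes tested, and without the filter, as were 0.783%. Snap25, the neuronal and endocrine t-SNARE, was at 4.32, 3.02, 6.28 and 5.29 in the controls and at 1.72, 0.459, 7.28 and 1.09 in the knockouts. Knockout 3 was the highest of all 8 libraries, and the log2 fold change of Snap25 was -0.91 (SE 0.67, edgeR adjusted p = 0.900) with it and -2.11 (SE 0.45, edgeR adjusted p = 0.0466) without it. Stx11, a syntaxin of cytotoxic granules, did not pass the filter and is named because its values had been seen. It had 2, 0, 1 and 2 counts in the controls and 101, 53, 0 and 58 in the knockouts. Stx11 was past both limits without the filter, at a log2 fold change of 4.96, as were 0.783% of all genes tested. The same held without knockout 3, at 5.34, as for 1.08% of all genes. Its controls were near 0 counts in both fits. Knockout 3, with no count, was again unlike the other knockouts.

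Of the calcium sensors and priming factors, 9 of 26 passed the filter. Syt7, a high-affinity calcium sensor of granule release, had a median of 12.8 normalized CPM and a log2 fold change of -0.32 (SE 0.26), and Cadps2, a priming factor, had 11.2 and -0.38 (SE 0.24). Cplx2, a complexin that clamps and promotes SNARE fusion, was at 6.21, 9.60, 11.4 and 5.76 in the controls and at 5.29, 4.42, 5.29 and 4.31 in the knockouts (log2 fold change -0.77, SE 0.28, edgeR adjusted p = 0.581). Syt11, a synaptotagmin that does not bind calcium, had 33, 30, 41 and 25 counts in the controls and 145, 132, 7 and 139 in the knockouts. Its log2 fold change was 1.35 (SE 0.55, edgeR adjusted p = 0.663) over all libraries and 1.70 (SE 0.28, edgeR adjusted p = 0.0127) without knockout 3, where 3 of the listed genes and 1.08% of all genes tested were past both limits.

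All 9 exocyst genes, whose products form the complex that tethers vesicles to the plasma membrane, passed the filter, and none of their unadjusted p-values was under 0.05. Exoc5, Exoc4 and Exoc3 had the highest medians, 20.8, 12.2 and 9.62 normalized CPM, and log2 fold changes of -0.01 (SE 0.23), -0.01 (SE 0.26) and -0.10 (SE 0.21). The smallest p-values were those of Exoc7, at 0.64 (SE 0.45, edgeR adjusted p = 0.889), and Exoc1, at 0.30 (SE 0.23, edgeR adjusted p = 0.906).

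Of the 19 other secretory Rabs, 16 passed the filter, and their levels varied. Rab1a and Rab2a, which act between the endoplasmic reticulum and the Golgi, had medians of 86.4 and 63.3 normalized CPM, and Rab6a of the Golgi had 50.1, with log2 fold changes of -0.01 (SE 0.18), -0.01 (SE 0.20) and -0.07 (SE 0.20). Rab13 was at 0.564, 1.35, 1.71 and 1.82 in the controls and at 2.38, 2.24, 3.29 and 2.00 in the knockouts, with every knockout above every control (log2 fold change 0.86, SE 0.45, edgeR adjusted p = 0.788). Rab8a, which acts in apical delivery, had a log2 fold change of -0.24 (SE 0.18, edgeR adjusted p = 0.897).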

How the data were processed

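RNA of sorted Paneth cells from 4 control and 4 knockout mice was sequenced after Smart-seq2 amplification. The authors aligned reads to mm10 with GSNAP and deposited raw counts of uniquely mapped reads per gene of Ensembl release 92, made with featureCounts 1.6.3. The strand setting is not given in the sources used here. PCR copies were counted separately, so count limits cover counting error only. The 92 spike-in rows were left out, and 53620 of 53801 genes were matched to symbols.

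Groups were taken from the genotype labels. Replicate numbers are names. No 2 libraries were closer than sampling noise. From the counts, TMM factors and quasi-likelihood fits (robust) were computed in edgeR 4.0.16 (R 4.3.3) for 13439 genes that passed filterByExpr (minimum count 10, minimum total 15), with Benjamini-Hochberg adjustment. The common biological coefficient of variation was 0.376. Levels per kb used the union of exons. Alternatives used DESeq2 1.42.0 and limma 3.58.1, other size factors, filters and covariates, and leave-one-out fits. Code was tested on simulated counts. Identity was computed between coding sequences, since no protein table was used here.

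The 10 genes and all lists were chosen with earlier results of these data known. The genes named are all 10, Kmt2a, Bhlha15, Xbp1, the 5 genes most like the most abundant of the 10, and of each pathway list those past both limits, or the 3 most abundant and the 2 with the smallest p. Marker genes, Stx11 and the genes most like Rab3c, Sytl2, Rab27a and Rab27b were named outside this rule, after their values were seen. A gene named by this rule was tested and counted with the others and is not reported here.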

Additional observations from a re-analysis of the deposited data

Results flagged for a closer look

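In a group of 4 libraries, a value was singled out where its gap to the nearest other, divided by the whole range, was above the 95% critical value of Dixon's test. This was so in 3 of 20 groups of the 10 genes, and chance alone gives about 1. For Rab3c, knockout 1 (1.54 normalized CPM) was far above the other knockouts, with a gap of 0.984 of the range. For Rab27a, knockout 2 (14.1 normalized CPM) was the high one, with a gap of 0.847. For Rab3b, knockout 1 was high with a gap of 0.830, on 6 counts against 0 or 1 in the other knockouts.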

How the results depend on the processing

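Of all genes, 25 were past both limits, 290 without a filter, 13 with at least 10 counts in every library, 138 in DESeq2's Wald test, 95 in limma-voom, 10 with a Y-linked covariate and 38 at 10% false discovery rate without a limit on the fold change. Leaving out single libraries gave 10 to 152, the highest without knockout 3. Of the 10 genes, 0 were past both limits, and 1, Rab3c, without a filter and in DESeq2, with 0 to 1 when single libraries were left out. Its log2 fold change was below 0 in all 17 alternatives. That of Sytl2 turned to -0.17 in limma-voom, and to -0.06, -0.02 and -0.10 without control 1, control 2 and knockout 3, and it lay between -0.10 and 0.36 over the single libraries left out. The other 5 genes tested kept their sign. Of the pathway genes, 0 were past both limits, 2 without a filter, 1 in DESeq2 and 3 without knockout 3. Over all genes tested the shares in these 3 alternatives were 0.783%, 1.03% and 1.08%. Of the 10 places in the order of levels, 6 to 10 were kept when single libraries were left out and 3 with the length of the longest coding transcript, an alternative chosen after seeing the data. Of the 5 genes most like Rab3d, 3 were kept without knockout 3. The causes were not tested. No paired analysis was possible because the labels share only 1 animal number between the groups, that of control 4 and knockout 4. Why these libraries of unlike genotype carry the same number is not given. They are counted as separate mice here, as the study states 4 mice per genotype. The methods speak of littermates, but which mice shared a litter was not given in the labels. With the library set as a covariate, 24 genes and 0 of the 10 were past both limits.

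Counts limit Rab3b, Rab26 and Rab37, with at most 6, 3 and 21 counts in a library, and Rab3c in the knockouts.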

Other observations

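Genes most like the other abundant members were also looked up after the data had been seen. For Sytl2 the closest 2 over the 8 libraries were Cracr2a, which encodes a calcium-binding protein related to Rab GTPases, and Mia3, which loads large cargo for export from the endoplasmic reticulum. No coefficient is given, since the library sets separate in Sytl2. For Rab27a the closest was Lgals2, a galectin gene (r = 0.97), and for Rab27b it was Pbld2 (r = 0.96), both over 8 libraries that share depth and TMM factor between the genes. Each is the highest coefficient among all genes tested, and how high it would be by chance was not tested. None of the genes named here was among the 5 genes closest to Rab3d.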
